A study of Oryza sativa with 4 samples.

Results

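OsLEC1 peaks around the 12 rice centromeres were examined in chromatin immunoprecipitation followed by sequencing (ChIP-seq) of callus. A peak is a stretch of the genome where fragments pulled down with the antibody pile up above the input DNA, and its summit is the base with the most fragments. A peak was counted as centromeric when its summit lay within 2 Mb of an approximate centromere position on the IRGSP-1.0 assembly. This gave 12 windows of 4 Mb each, and 1406 of the 27452 OsLEC1 peaks, or 5.12%, were located in them. The windows made up 12.9% of the 372 Mb between the first and the last peak of each chromosome. The rule used position alone, so the height and width of the peaks are independent of it, while their spacing comes from the same positions. The centromere positions are rounded to 0.1 Mb and were not taken from the data.

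The tagged callus came from plants in which the 35S promoter, a viral promoter active in most plant tissues, drives OsLEC1 fused to a FLAG tag (35S:3xFLAG-OsLEC1). The control was callus of the wild type Nipponbare (NIP), the background of the transgenic plants, which carries no tag. Seeds of both genotypes were placed on callus induction medium with 2,4-D, and the same antibody against the DDDDK epitope of FLAG was used for both. The labels give 4 groups, namely OsLEC1-ChIP, OsLEC1-input, NIP-ChIP and NIP-input, with 1 library in each, so no value here has a replicate check. The paper names a single transgenic line for the ChIP-seq, and the 35S promoter places the tagged protein outside its native pattern. Depth can be read only from the lowest background of each list. It was 3.49 fragments per base in OsLEC1-ChIP, a value shared by 1240 peaks and taken here as the mean coverage, and 0.842 in NIP-ChIP, an upper bound for its coverage. Markers of callus were not analysed here, since peak lists hold no expression values.

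LEC1 proteins are NF-YB subunits of the NF-Y transcription factor complex and act as regulators of seed maturation. Centromeres are the places where the kinetochore forms on chromatin that holds the histone variant CENH3. In rice they are built from arrays of the CentO satellite and centromeric retrotransposons, and the chromatin around them is rich in transposons and poor in genes. Only uniquely mapped reads were kept by the authors, so repeated sequence of this kind adds few fragments to the libraries. The part this played in the number of centromeric peaks was not tested.

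Peaks were sparse around the centromeres of all chromosomes. The windows held 29.3 peaks per Mb (95% interval 27.8 to 30.9, exact Poisson), against 80.3 (79.4 to 81.3) in the rest of the 12 chromosomes. The ratio was 0.365 (0.345 to 0.385, exact conditional binomial). Density was lower in the window than in the rest of the same chromosome on 12 of 12 chromosomes, and the interval of the ratio lay below 1 on each of them. All intervals here cover counting error only. Peaks were placed unevenly along the chromosomes, which these intervals do not include.

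Part of this contrast was shared by the wider surroundings. In the flanks, from 2 to 6 Mb on either side of the centromere position, there were 3859 peaks, or 41.7 per Mb (40.4 to 43.0). Against the flanks, the ratio of the windows was 0.703 (0.661 to 0.748). The window was below its own flanks on 11 of 12 chromosomes, and the interval of this ratio lay below 1 on 8 of them. Chromosome 9 went the other way, with a ratio of 1.10 (0.829 to 1.45), and chromosome 12 was nearly level at 0.986 (0.777 to 1.25). On chromosome 9 the window starts at 0.8 Mb, close to the start of the chromosome, so its flanks covered 4.64 Mb instead of 8 Mb.

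The sparsest window was that of chromosome 4, with 66 peaks or 16.5 per Mb (12.8 to 21.0), against 80.7 in the rest of the chromosome, a ratio of 0.204 (0.158 to 0.261). Chromosome 5 followed in this ratio, with 95 peaks in the window and a ratio of 0.283 (0.228 to 0.347). These were the only 2 chromosomes with a ratio under 0.3, and their intervals overlapped. Chromosomes 9, 10, 7, 3 and 1 lay close together, with ratios of 0.342, 0.345, 0.346, 0.358 and 0.373 and overlapping intervals. Chromosome 2 had a ratio of 0.412, chromosome 8 of 0.446, chromosome 6 of 0.492 and chromosome 11 of 0.503. The intervals of these chromosomes overlapped one another as well. With windows of 1 Mb on either side the order was different, since the ratio was then 0.231 (0.154 to 0.333) on chromosome 8 and 0.223 (0.166 to 0.293) on chromosome 3. It was also different against the flanks. Those of chromosome 4 were the sparsest, with 23.0 peaks per Mb, and its ratio to them was 0.717 (0.533 to 0.955). Chromosome 5 had the lowest ratio to the flanks, 0.515 (0.407 to 0.647). Chromosomes 10, 2, 11 and 3 followed with 0.604, 0.611, 0.613 and 0.658.

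Chromosome 12 had the smallest contrast, with 27.3 peaks per Mb (22.4 to 32.9) in the window and 40.1 (37.6 to 42.8) in the rest, a ratio of 0.680 (0.552 to 0.829), whose interval overlapped those of chromosomes 6 and 11. Its window was not unusually full. It held 109 peaks, and the windows of chromosomes 5, 7, 8, 9, 10 and 11 held between 87 and 115. The rest of chromosome 12 had the lowest density of the 12 chromosomes instead. The highest densities in the windows were found on chromosomes 3 (43.0 per Mb), 2 (41.5) and 1 (39.5), which also had the densest arms, with 120, 101 and 106 peaks per Mb.

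**Figure D1:**
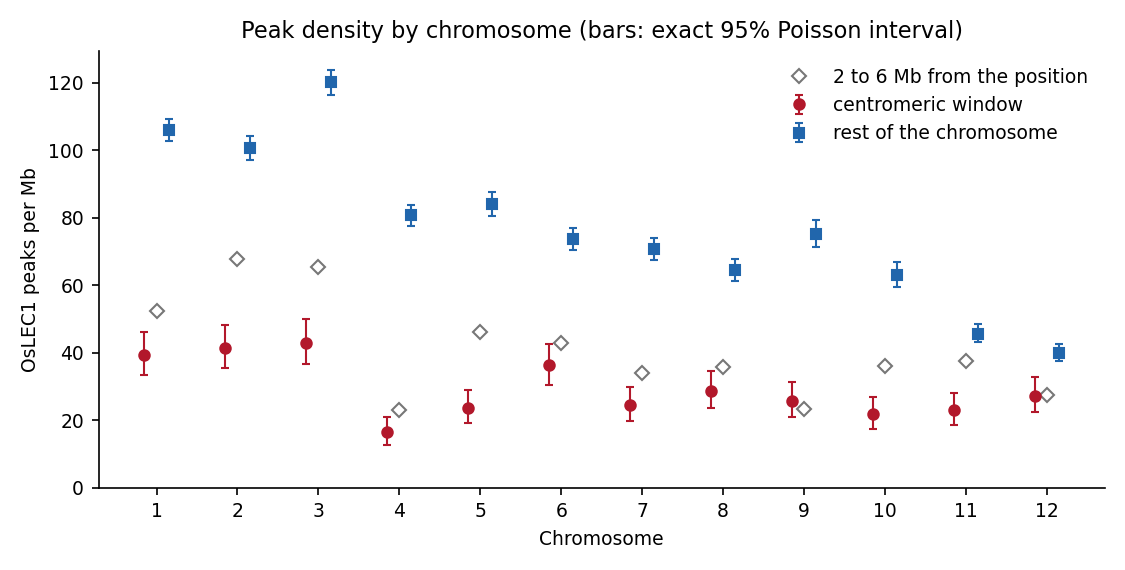
OsLEC1 peaks per Mb (vertical axis) for each chromosome (horizontal axis), in the centromeric window (circles), in the rest of the chromosome (squares) and from 2 to 6 Mb from the centromere position (open diamonds), with exact 95% Poisson intervals for the first 2 of these. Every circle lies below the square of its chromosome, from 16.5 per Mb on chromosome 4 to 43.0 on chromosome 3.

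Each chromosome was then tiled with further 4 Mb windows outwards from its centromeric one, to see whether other regions were as sparse. Of 68 such windows, 2 held fewer peaks than the centromeric window of their chromosome. One was located on chromosome 9, with 93 peaks against 103, and the other on chromosome 12, with 97 against 109. On the other 10 chromosomes the centromeric window held the fewest peaks of these whole 4 Mb windows. The comparison was made without intervals, and other starts of the tiles were not tried. Among these, the difference in peaks was widest on chromosome 3, where the next sparsest window held 261 against 172 around the centromere. It was narrowest on chromosome 7, with 107 against 98.

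Density fell towards the centromere position itself. Within 0.5 Mb of the position there were 201 peaks in 12 Mb, or 16.8 per Mb (14.5 to 19.2). From 0.5 to 1 Mb the density was 29.5 (26.5 to 32.7), from 1 to 1.5 Mb it was 35.9 (32.6 to 39.5), and from 1.5 to 2 Mb it was 35.0 (31.7 to 38.5). Thus the 2 inner classes differed from each other beyond counting error, while the 2 outer ones did not. Beyond the windows the density stayed between 34.3 and 38.7 up to 4 Mb, and lay between 42.3 and 48.4 from 4 to 6 Mb. The mean of the remaining chromosome was thus not reached at that distance.

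The lowest values were found in the 2 bins of 0.25 Mb that meet at the position. The bin before it held 27 peaks on all chromosomes together, or 9 per Mb (5.93 to 13.1), and the bin after it 32, or 10.7 (7.30 to 15.1). Each chromosome contributed 2 to 7 peaks to these bins together. No chromosome was thus free of peaks within 250 kb of its position, and the fewest were found on chromosome 5. Joining these 2 bins was decided after their values were seen. The low values were tied to the positions used and were not seen 0.5 Mb away. The bins that meet 0.5 Mb towards the start of the chromosomes had 30.7 and 19.7 peaks per Mb, and those that meet 0.5 Mb towards the end had 27.7 and 21.7.

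**Figure D2:**
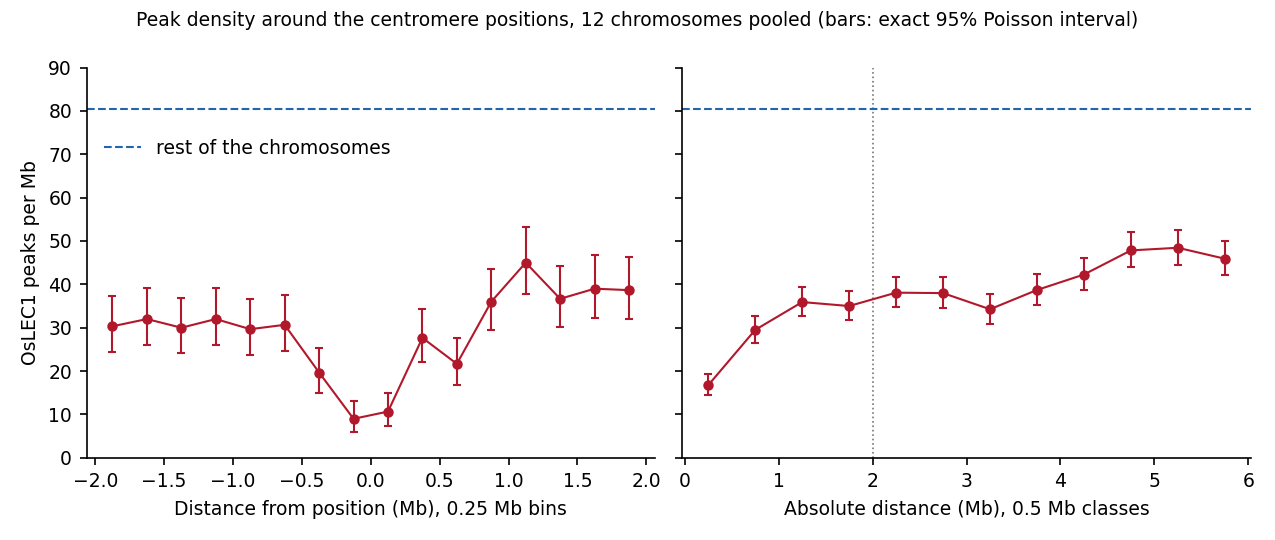
OsLEC1 peaks per Mb (vertical axis) over the 12 chromosomes pooled, in 0.25 Mb bins by signed distance (left) and in 0.5 Mb classes by absolute distance (right) from the centromere position, with exact 95% Poisson intervals. The dashed line is the density in the rest of the chromosomes, 80.3 per Mb, and the curve falls to 9 and 10.7 in the bins beside the position.

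The sides of the centromere were not alike on every chromosome. On chromosome 1, 109 of 158 peaks lay on the side towards the end of the chromosome, or 69.0% (exact Clopper-Pearson 95% interval 61.2 to 76.1%). Chromosome 5 had 66 of 95 on that side, or 69.5% (59.2 to 78.5%), and chromosome 7 had 60 of 98, or 61.2% (50.8 to 70.9%). Chromosome 8 was the reverse, with 40 of 115 or 34.8% (26.1 to 44.2%). On the other 8 chromosomes the interval included 50%. Since the positions are approximate, a shift of the true centromere would move these shares.

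Long stretches without peaks were common in the windows. Of the 1394 distances between neighbouring summits in the windows, 106 or 7.60% were at least 100 kb, compared with 0.923% of 26002 in the rest and 3.75% of 3835 in the flanks. The median distance was 16.1 kb (14.7 to 17.7) in the windows, 11.3 kb (10.6 to 11.96) in the flanks and 6.23 kb (6.12 to 6.33) in the rest. Fewer summits had a close neighbour: 138 distances, or 9.90% (8.38 to 11.6%), were under 2 kb, against 12.3% (11.3 to 13.4%) in the flanks and 18.6% (18.1 to 19.05%) in the rest. The intervals of windows and flanks overlapped slightly for this share. A lower density by itself gives longer distances.

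The stretch without summits that crossed the centromere position ranged from 94.4 kb on chromosome 3 to 431 kb on chromosome 7, with a median of 192 kb. On chromosome 1 it ran over 334 kb from 16731615 to 17065239, and on chromosome 10 over 333 kb from 8070332 to 8403160. Both were the longest stretch without a summit on their chromosome. On chromosome 5 the stretch from 12059092 to 12453155, of 394 kb, was next to the longest. On chromosomes 3, 4, 6 and 12 the stretch across the position ranked 14, 15, 12 and 20 by length on its chromosome, and on chromosome 11, at 100 kb, it ranked 35 of 1226. A long stretch is more likely than a short one to cover any given point, so these lengths are given as a description. The longest stretch on chromosome 11, of 564 kb, ran from 12076857 to 12640898. It began 76.9 kb from the centromere position, on the side of the chromosome end.

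The sparsest 1 Mb of each chromosome was compared with the given position. On chromosomes 1, 2, 3 and 4 its centre was within 0.5 Mb of the position, namely 0.0729, 0.108, 0.0635 and 0.188 Mb away. On chromosomes 11, 10 and 7 it was 0.635, 1.44 and 1.99 Mb away and still within the window. On chromosomes 5, 6, 12, 8 and 9 the sparsest 1 Mb was centred outside the window, between 2.15 and 6.16 Mb from the position. The counts were close on several of these. The sparsest 1 Mb held 5, 7, 13 and 7 peaks on chromosomes 5, 8, 10 and 11, against 9, 9, 16 and 11 in the 1 Mb at the position. The gap was wider on chromosomes 6, 7, 9 and 12, with 5, 7, 12 and 8 peaks against 21, 22, 21 and 21. No intervals were computed for these counts. Thus the sparsest 1 Mb and the centromere position coincided on some chromosomes, while on others they differed in place but little in count.

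**Figure D3:**
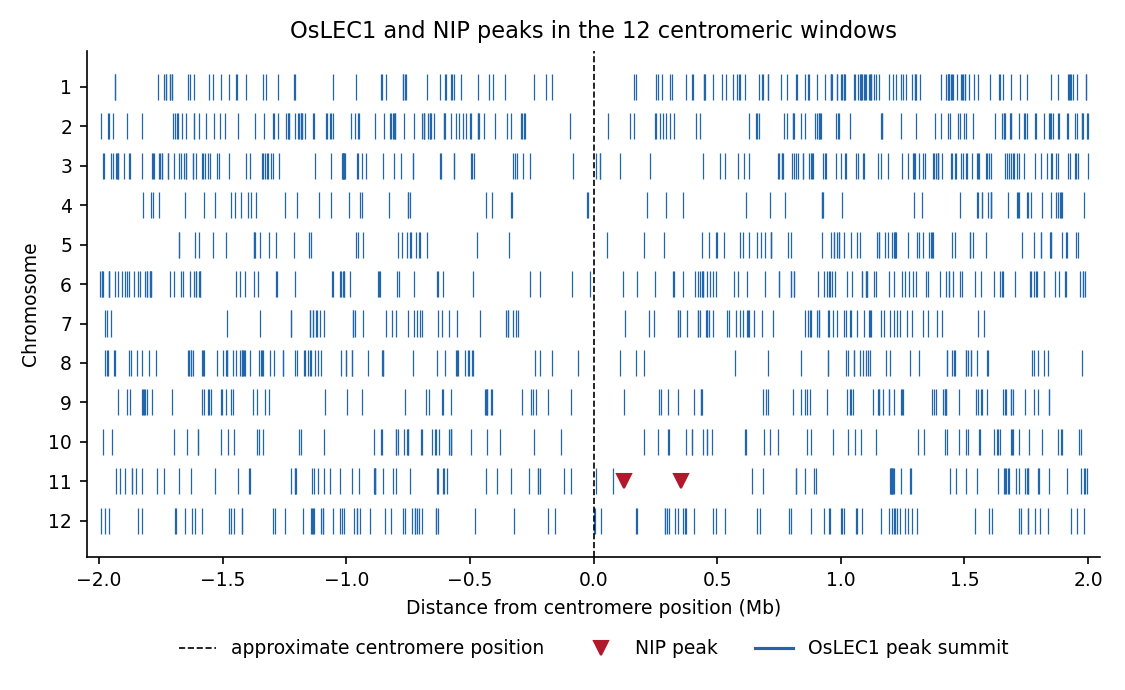
Summits of the 1406 OsLEC1 peaks (vertical strokes) in the windows of the 12 chromosomes (rows), by distance from the centromere position in Mb (horizontal axis), with the 2 NIP peaks as triangles. Strokes thin out around 0 on most rows, and both triangles lie in the 564 kb stretch without OsLEC1 summits on chromosome 11.

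The peaks that were present around the centromeres were about as high as elsewhere. Height is given by the authors' fold. It divides the pileup, meaning the fragments of the ChIP library that cover the summit, by the background after adding 1 to each. The background is the highest of several local averages of the input and the mean coverage, scaled to the ChIP library. The median fold was 5.12 (4.95 to 5.32, order-statistic interval) in the windows, 5.12 (5.08 to 5.16) in the rest and 5.12 (5.06 to 5.21) in the flanks. The middle 50% of the centromeric folds lay between 3.96 and 7.06, compared with 3.91 and 6.97 in the rest. A fold of at least 10 was reached by 126 centromeric peaks, or 8.96% (7.52 to 10.6%), against 8.68% (8.34 to 9.02%) in the rest. By chromosome, the median fold was lower in the window on 6 and higher on 6, and ranged from 4.45 on chromosome 4 to 5.54 on chromosome 11.

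The pileup and the background were both lower in the windows than in the rest. The median pileup was 36 fragments (35 to 37) in the windows and 39 (38 to 39) in the rest, and the median background was 5.76 (5.72 to 6.45) and 6.68 (6.68 to 6.68). The background was lower in the window on 9 of 12 chromosomes, equal on 2 and higher on 1, and the pileup was lower on 8. The background was at the mean coverage, the lowest value possible, at 9.03% (7.59 to 10.7%) of the centromeric peaks and at 4.25% (4.01 to 4.50%) of the others. The flanks had a median pileup of 36 (35 to 36), a median background of 5.99 (5.76 to 6.22) and 8.91% (8.03 to 9.86%) of peaks at the mean coverage. Windows and flanks thus overlapped in all of these measures.

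Centromeric peaks were somewhat narrower than those in the rest of the chromosomes. Their median width was 393 bp (383 to 402) against 409 bp (406 to 411), and it was lower in the window on 10 of 12 chromosomes, or on 6 with windows of 1 Mb on either side. The flanks were narrower still at 382 bp (376 to 388). At least 1000 bp were spanned by 37 centromeric peaks, or 2.63% (1.86 to 3.61%), compared with 5.35% (5.08 to 5.63%) of the others and 2.72% (2.23 to 3.28%) in the flanks. The median −log10 q-value was 13.8 (12.9 to 14.6) in the windows, 13.8 (13.6 to 14.4) in the flanks and 14.9 (14.7 to 15.2) in the rest. Among peaks with the background at the mean coverage, 127 in the windows and 1106 in the rest, the direction was the opposite: the windows had a median width of 378 bp (339 to 400) against 344 bp (335 to 352), and a median pileup of 28 (26 to 33) against 27 (26 to 28), with overlapping intervals.

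**Figure D4:**
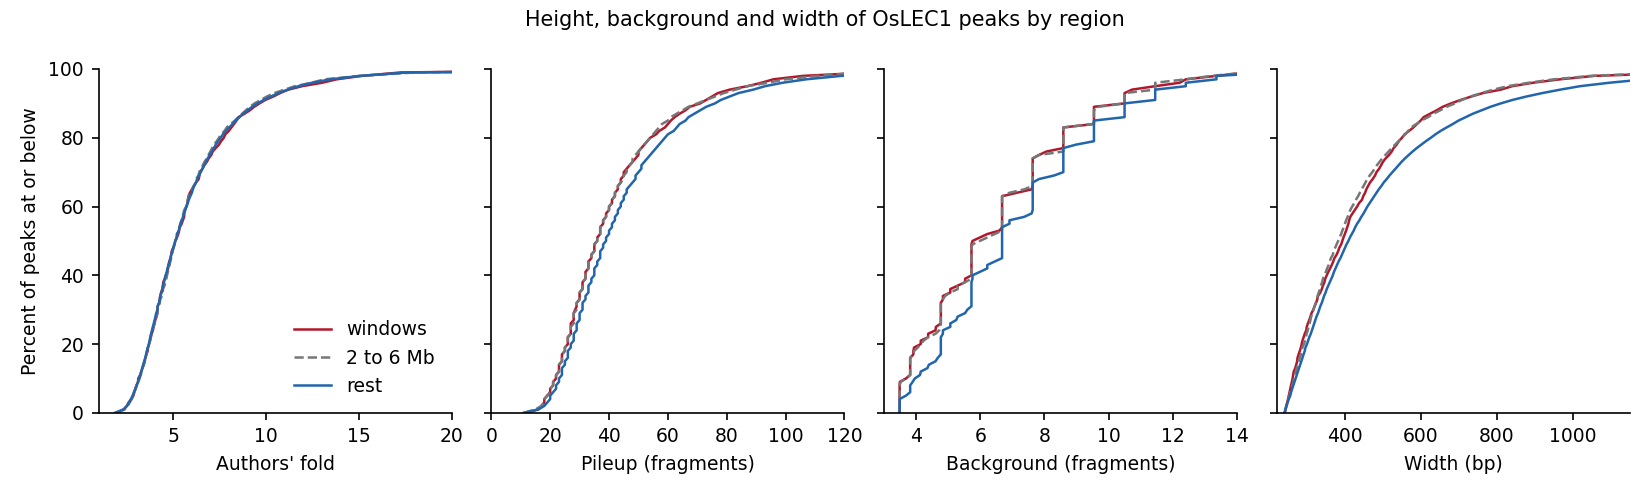
Percent of OsLEC1 peaks (vertical axis) at or below a given fold, pileup in fragments, background in fragments and width in bp (horizontal axes, cut at the upper end), for the windows, the flanks from 2 to 6 Mb and the rest of the chromosomes. The 3 curves run together for the fold, with medians of 5.12, while for the other measures the windows and flanks run together to the left of the rest.

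Within the windows, the median fold was lower near the position than further out, with intervals that only just overlapped. In the 59 peaks within 250 kb, the median fold was 4.61 (4.03 to 5.03), against 5.20 (5.01 to 5.35) in the other centromeric peaks, with intervals that overlapped slightly. The highest fold within 250 kb was 11.9, but a peak on chromosome 1 with a fold of 31.5 lay just beyond this limit, at 252 kb, and the limit was chosen after the values were seen. Their median width was 350 bp (318 to 382) against 396 bp (387 to 404). The background was not lower there, with a median of 6.68 (5.72 to 7.63) against 5.76 (5.72 to 6.45). In the classes of 0.5 Mb the median fold was 4.87 (4.46 to 5.31) next to the position and between 5.08 and 5.33 in the other 3 classes, with overlapping intervals.

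The single peak closest to the position was read on each chromosome. These 12 peaks lay 1.06 to 165 kb from it and had folds of 2.17 to 10.9, with a median of 4.05, below the median of all centromeric peaks. The closest of all, on chromosome 12 from 11901042 to 11901386, had 12 fragments (6.20 to 21.0) over the lowest possible background of 3.49. The one on chromosome 11 from 12008680 to 12009119 had the lowest fold, 2.17, with 24 fragments (15.4 to 35.7) over a background of 10.5. A fold above 6 was found in 2 of the 12, while 65% of all centromeric peaks had a fold of 6.02 or less. One was the peak on chromosome 3 from 19511380 to 19511902, with a fold of 10.9 and 72 fragments (56.3 to 90.7). The other was the peak on chromosome 9 from 2707112 to 2707691, with a fold of 7.78 and 81 fragments (64.3 to 100.7).

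Some of the strongest OsLEC1 peaks of the genome were located in the windows, in about the share that the windows held of all peaks. A peak on chromosome 4 from 9368901 to 9369599, at 331 kb from the centromere position, had 339 fragments (304 to 377) over a background of 16.2. This was the highest pileup of all 27432 peaks on the chromosomes, in the window with the fewest peaks. Its fold was 19.7, which ranked 170 because of the high background, and its −log10 q-value of 304 ranked 3. A peak on chromosome 1 from 17150895 to 17152119, only 252 kb from the position, reached a pileup of 271 fragments (240 to 305) against a background of 7.63 and thus a fold of 31.5. Chromosome 8 carried one between 11753686 and 11755421, at 1145 kb from the position, whose 288 fragments (256 to 323) against 8.59 gave a fold of 30.1. Its −log10 q-value of 314 was the second highest of the list, and it was also among the 5 widest centromeric peaks with 1736 bp.

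The highest fold of the windows, 34.2, was reached on chromosome 10, between 10162443 and 10163260, where 167 fragments (143 to 194) stood against a background of 3.91. It lay 1963 kb from the position, close to the edge of the window. After this peak and those on chromosomes 1 and 8 came chromosome 3, between 17878794 and 17879760, at a fold of 25.5 and 219 fragments (191 to 250), and chromosome 7, between 13607068 and 13607941, at a fold of 23.2 and 155 fragments (132 to 181). On the remaining chromosomes the highest fold in the window was between 14.1 on chromosome 6 and 19.9 on chromosomes 11 and 12. Of the 100 highest folds on the chromosomes, 5 were centromeric, and so were 5 of the 100 highest pileups, while 5.13% of all these peaks were centromeric. Among the 100 widest peaks there were 3.

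The widest centromeric peaks were found on chromosome 1. One spanned 2226 bp from 16327123 to 16329348, with a fold of 15.5 and 100 fragments (81.4 to 122), and the other 2013 bp from 16478499 to 16480511, with a fold of 5.74 and 54 fragments (40.6 to 70.5). The fold was 7.03 for a peak of 1966 bp on chromosome 3 (20106904 to 20108869) and 5.72 for one of 1732 bp on chromosome 2 (12521608 to 12523339). Wide peaks were thus not always high. Besides the peaks named above, a peak on chromosome 1 from 18123997 to 18125058 was among the 5 highest pileups, with 186 fragments (160 to 215) over a background of 16.2 and a fold of 10.9.

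At the 2 Mb limit, the last centromeric peak was on chromosome 2 from 15698838 to 15699114, at 1999 kb from the position, with a fold of 2.298 and 32 fragments. The first peak beyond it was on chromosome 8 from 10899825 to 10900085, at 2000.03 kb, with a fold of 3.81 and 23 fragments.

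Both peaks of the wild type were located beside the centromere of chromosome 11. NIP peak 1, from 12122549 to 12123488, had its summit 123 kb from the centromere position, and NIP peak 2, from 12352092 to 12352859, had its summit 353 kb from it. Both were on the side towards the end of the chromosome, 230 kb apart. They lay inside the stretch of 564 kb between the OsLEC1 summits at 12076857 and 12640898. The OsLEC1 peak before this stretch had a fold of 4.13 with 25 fragments (16.2 to 36.9), and the one after it a fold of 10.7 with 64 fragments (49.3 to 81.7). No OsLEC1 peak overlapped either NIP peak.

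The surroundings of the NIP peaks were sparse on one side of the centromere. Within 500 kb of the position, chromosome 11 had 11 OsLEC1 peaks, of which 9 lay on the side of the chromosome start and 2 on the side of the NIP peaks. Their folds ranged from 2.17 to 9.96 with a median of 5.20. Within 250 kb of NIP peak 1 there were 4 OsLEC1 summits, and within 250 kb of NIP peak 2 there were 0. Within 2 Mb the numbers were 92 and 100.

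NIP peak 1 had a fold as high as those of the top centromeric peaks in OsLEC1-ChIP. It had 141 fragments (119 to 166) over a background of 3.54, a fold of 31.3, and a width of 940 bp. Of the 1406 centromeric OsLEC1 peaks, 2 had a higher fold, 9 a higher pileup and 48 were wider. NIP peak 2 had 21 fragments (12.999 to 32.1) over 0.842, a fold of 11.9 and a width of 768 bp, and of the 1406 centromeric OsLEC1 peaks 71 had a higher fold, 1269 a higher pileup and 98 were wider. The background of NIP peak 1 was 4.21 times that of NIP peak 2. The libraries differ in depth, and these values were set side by side without a test. Pileups are not scaled to depth, and the 1 added in the fold weighs more at a low background. These ranks therefore do not compare how far peaks stand out within each library. The 1 library per genotype cannot tell a difference between the genotypes from a difference between libraries.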

How the data were processed

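ChIP-seq peak lists of OsLEC1-ChIP and NIP-ChIP were used, with 1 library per group. The study's methods state alignment to IRGSP-1.0 with Bowtie2, retention of unique alignments and MACS2 calls against input at a q-value of 0.01. The submitters' processing notes name CASAVA 1.4, Bowtie2 2.3.4.1 and MACS2 2.1.2. The fragment length and genome size settings are not given in the sources used here, and whether the replicate filter (IDR) named in the methods was applied is unknown. The library kit differs between the labels and the methods. The authors deposited for each peak a fold (a ratio), −log10 p-value, −log10 q-value and a score, which is 10 times the −log10 q-value rounded down.

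Starts were made 1-based. The pileup and background were solved from the fold and −log10 p-value, within 0.001 for 100% of the peaks, after a check on simulated peaks. Depth is known only as mean coverage. Fragments copied by PCR are not independent, so intervals (95%) cover counting error only. No test between samples was possible. Computations used Python 3.11.15, numpy 2.4.6, pandas 2.3.3 and scipy 1.17.1, and plots matplotlib 3.10.9.

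Named peaks were, per window, those with the highest fold and nearest the position, the 5 highest in fold, width and pileup over all windows, those at the 2 Mb limit, those beside the NIP peaks and both NIP peaks. Members and measures were chosen with earlier results of these data known. Sequence words, genes near peaks and chromosome lengths were not analysed here, because the gene table at hand is on another assembly (ASM3414082v1).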

Additional observations from a re-analysis of the deposited data

Results flagged for a closer look

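The OsLEC1 list holds 20 peaks from 9 sequences which have no place on a chromosome, and therefore no distance to a centromere. They stand outside all comparisons of windows, flanks and arms. Their folds ranged from 2.52 to 19.2 with a median of 6.55, and NIP-ChIP had 0 peaks on such sequences. Whether any of these sequences belongs to a centromere was not tested.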

How the results depend on the processing

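Of 208 comparisons of a value with its value under another setting, 166 did not move, 37 moved and 5 changed direction. The settings reuse largely the same peaks, so these comparisons are not independent checks. Peak midpoints in place of summits repeated the number of centromeric peaks and the ratios exactly. The pooled density ratio of 0.365 stayed below 1 throughout: it was 0.299 with windows of 1 Mb on either side, 0.345 when a −log10 q-value limit of 10 was set, 0.703 against the flanks, and between 0.353 and 0.379 when each chromosome was left out in turn. The ratio of single chromosomes was below 1 in 95 of 96 comparisons, the exception being chromosome 9 against its flanks (1.10). These are the same 12 chromosomes seen under several settings. Against the flanks, the interval included 1 on chromosomes 6, 8, 9 and 12. The number of centromeric peaks was 555 within 1 Mb, 2305 within 3 Mb and 933 at the limit of 10, by construction. The median fold in the windows was 5.35 at the limit of 5, 6.24 at the limit of 10 and 6.46 at the lowest background. In the rest it was 5.32, 6.07 and 6.24. The median −log10 q-value at the limits of 5 and 10 was 15.1 and 20.4 in the windows, and 16.0 and 20.5 in the rest. At the limit of 10 the median width was 438 bp and the median pileup 44, against 455 bp and 46 in the rest. A q-value limit raises these medians by construction. The direction against the comparison region changed for the width against the flanks (393 against 382 bp, a setting chosen after the data were seen), and at the lowest background for the width (378 against 344 bp), the pileup (28 against 27) and the −log10 q-value (14.6 against 13.7). The cause was not tested. Moving the positions by 0.5 Mb either way did not move the number of centromeric peaks, the pooled ratio, the medians or the share of close neighbours beyond counting error. Apart from the bins 0.5 Mb away given above, the density by distance and the peaks within 250 kb were not recomputed with moved positions. With positions moved towards the end, the ratio of chromosome 5 went from 0.283 to 0.355. At the limit of 10, the median fold was lower in the window on 3 chromosomes instead of 6. Both NIP peaks stayed within 1 Mb, and 0 overlapped or lay within 10 kb of an OsLEC1 peak.

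Chromosome lengths from a reference were not run. No paired analysis was possible because the groups hold single libraries. The depth of NIP-ChIP, known only as an upper bound, limits any comparison of peak numbers between the genotypes.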
